A study of Mus musculus with 4 samples.

Results

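Stable H3K27ac peaks are regions of acetylated chromatin that were called with nearly the same borders in a mouse erythroid progenitor line without GATA1 and in its subline after GATA1 activity was restored. A stable peak was a pair of 1 peak in the pooled G1E-ER4+E2 list and 1 peak in the pooled G1E list whose overlap made up at least 80% of the width of each. The G1E-ER4+E2 peak also had to overlap, by at least 1 bp, a peak in each of the 4 replicate lists and to be narrower than 30000 bp. These conditions were met by 2454 pairs, which were 9.30% of the 26384 pooled G1E-ER4+E2 peaks and 10.1% of the 24332 pooled G1E peaks. The members were thus chosen on peak positions and widths in both states, and all comparisons of the states at these peaks are descriptions without a test.

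Acetylation of lysine 27 on histone H3 is placed by the co-activators EP300 and CREBBP and marks active promoters and enhancers. Because neighbouring nucleosomes are often acetylated together, the mark forms broad domains rather than points, and both the borders of a domain and the strength of the signal inside it can differ between cell states. GATA1, the master regulator of erythroid maturation, binds DNA motifs with the core GATA, takes over sites from GATA2 and recruits both activating and repressing partners.

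ChIP-seq against H3K27ac, which sequences the DNA that an antibody to the modified histone pulls down, was run on 2 replicates per state. G1E cells came from Gata1 knock-out embryonic stem cells of strain 129, were immortalized at an early erythroid stage and were left untreated. The G1E-ER4 subline carried the same knock-out and, by viral transduction, GATA1-ER, a fusion of GATA1 with a hormone-binding domain, and was given 10 nM estradiol for 24 h (G1E-ER4+E2). The states therefore differed in the transduced protein and in hormone at once, and untreated G1E-ER4 cells were not analysed here. Nothing in the labels says whether the replicates were separate cultures.

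The lists, which were read on mm9, gave each peak a fold enrichment but no read counts, so the depth of the libraries is unknown and no counting interval could be given. Pooled G1E-ER4+E2 peaks were more numerous and covered more of the genome than those of G1E, 201 Mb against 139.9 Mb, and their median enrichment was lower, 2.80 against 5.82. The same order held in the replicates, with 113 to 126 Mb and median enrichments of 6.69 and 7.76 in G1E, and 161 to 163 Mb with 2.98 and 3.59 in G1E-ER4+E2. Enrichment was therefore not compared between lists as such. Each peak was given its enrichment percentile, the share of peaks in the same list with a lower enrichment (tied peaks counted with a weight of 0.5). Peaks could not be assigned to genes, because no mm9 annotation was used here, and the cell type could not be checked against marker genes.

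Some stable peaks hold DNA segments for which the study compiled enhancer activity, from transfections by its own laboratory or from transgenic mouse assays mined from a public database. Of 330 such segments, called tested segments here, 273 were tested by transfection. The other 57 are segments bound by TAL1, an erythroid partner of GATA1, that overlap an element tested in transgenic mice. Their positions are those of the TAL1-bound segments and not of the tested elements. Of the 330, 235 lay wholly inside a pooled G1E-ER4+E2 peak. Of these, 33 (14.0%) lay inside 28 stable peaks, 18 from transfection and 15 from the transgenic assays. All 33 were also wholly inside the G1E peak of the pair. The primers that the study used to amplify TAL1-bound segments were at hand for 6 of the 33. They are shown because they mark exact positions inside stable peaks that are described with their values further on. In each primer, printed 5′ to 3′, capitals mark GATA or its complement TATC, the core of the GATA1 motif.
TAL1_3022 forward: gcttcaattcagtttagagtccaggc
TAL1_3022 reverse: agggagctggGATAaagacagga
TAL1_4199 forward: aacagggtaccagtgaatgtctgc
TAL1_4199 reverse: tgcatcttgactagttcccacacc
TAL1_4249 forward: taagcacccagcctggcatt
TAL1_4249 reverse: actagaggatgtgtcggatgggat
TAL1_4157 forward: catttacgggacacctcaaacacc
TAL1_4157 reverse: tgggacccatgcctcacatatact
TAL1_196 forward: agaaggtgtccgcctctctctaca
TAL1_196 reverse: tccgagtcctgttccacgtctgatt
TAL1_3920 forward: gggcattgatggagttaacaga
TAL1_3920 reverse: tggctggctctcttgaaatg

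Of these 12 primers 1 holds GATA or TATC, and 9 of all 140 primers listed by the study (6.43%) do. On mm9, TAL1_3022 spans chr3:146068530-146069275 and TAL1_4199 spans chr7:111009281-111010007. TAL1_4249 is at chr7:133185586-133186156 and TAL1_4157 at chr7:91871089-91871876. TAL1_196 is at chr1:135029195-135029593 and TAL1_3920 at chr6:135146525-135147153. The primers are only the ends of these segments, and the bases between them are not shown.

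The steps of the choice removed different kinds of peaks. Of all pooled G1E-ER4+E2 peaks, 10.8% (2856) shared 80% of both widths with a G1E peak. A peak in each replicate list was found for 49.0% of all pooled peaks and for 2544 of the 2856 pairs, and 90 of these 2544 were 30000 bp or wider. Stable peaks were 19.0% of the 12928 pooled peaks found in each replicate list. They covered 17.8 Mb in either state, which was 8.89% of the acetylated length in G1E-ER4+E2 and 12.7% in G1E. In 2369 of the 2454 pairs neither peak overlapped any other peak of the opposite list.

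Among the pooled G1E-ER4+E2 peaks that were not stable, 10636 overlapped no G1E peak, 5254 had a single G1E partner and were wider than it, 2956 had a single partner and were narrower, and 4682 overlapped several G1E peaks or shared one. A further 402 met the 80% condition but not another. Stable peaks had a median enrichment percentile of 80.2 in G1E-ER4+E2, where the wider, the narrower and the several or shared peaks had medians of 66.7, 63.2 and 67.2 and the peaks without a G1E partner had 29.4. Stable peaks had to be found in each replicate list, and the median over all peaks found in each list was 74.0. From the 90th percentile of the list upward lay 30.1% of the stable peaks, beside 19.8% of all peaks found in each replicate list. The median width of stable peaks, 5400 bp, lay between that of the narrower peaks (3000 bp) and those of the wider peaks (7100 bp) and of the several or shared peaks (9000 bp).

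The 80% condition kept the borders close, and it left room for shifts that are described here without a test. The median width was 5400 bp in both states, with an interquartile range of 3200 to 9400 bp in G1E and 3200 to 9600 bp in G1E-ER4+E2. The difference in width, G1E-ER4+E2 minus G1E, had a median of 0 bp, an interquartile range of -400 to 400 bp and extremes of -5200 and 4800 bp. The G1E-ER4+E2 peak was wider in 1027 pairs, narrower in 1076 and of the same width in 351. A peak could keep its width and still be displaced.

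Peak borders lie on a grid of 200 bp, so that identical borders can be counted. Both borders were identical in 182 pairs (7.42%), whose median width was 2000 bp, and exactly 1 border was identical in 852 pairs (34.7%). Both borders were within 200 bp, a single step of the grid, in 689 pairs (28.1%) and within 1000 bp in 1944 (79.2%). The median absolute shift was 200 bp at either border and the largest was 5600 bp. Both borders lay further out in G1E-ER4+E2 in 276 pairs, further in in 301, and both were displaced the same way in 843.

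**Figure D1:**
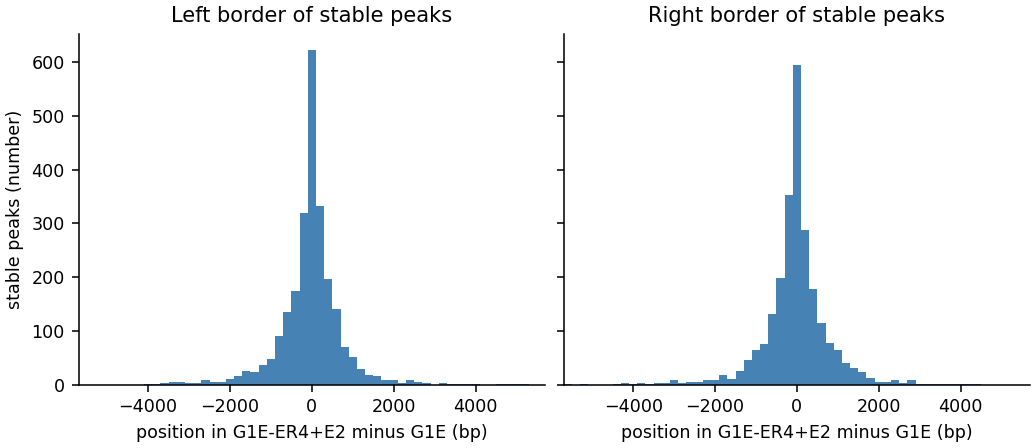
Number of stable peaks (y axis) by the position of the left and of the right border in G1E-ER4+E2 minus G1E in bp (x axis), in bins of 200 bp, for all 2454 pairs. The bin at 0 is the highest in both panels, with 622 left and 594 right borders identical, and the shifts lie on both sides of it out to 5600 bp.

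The order of the stable shares by width depended on which peaks they were taken of, and a shift of 1 step of the grid is a larger share of a narrow peak than of a wide one. Of peaks found in each replicate list, 31.0% of those under 1000 bp were stable, 22.2% from 1000 to 2000 bp, 23.6% from 2000 to 4000 bp, 21.7% from 4000 to 8000 bp, 17.7% from 8000 to 16000 bp and 14.4% from 16000 to 30000 bp. Of all pooled G1E-ER4+E2 peaks, in the same order of width, 11.5%, 7.32%, 7.53%, 10.0%, 12.4% and 12.7% were stable. Identical borders made up 84.1% of the 44 stable peaks under 1000 bp and 0.426% of the 235 from 16000 bp upward. The median absolute shift of the left border was 0 bp in the narrowest class and 1000 bp in the widest.

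**Figure D2:**
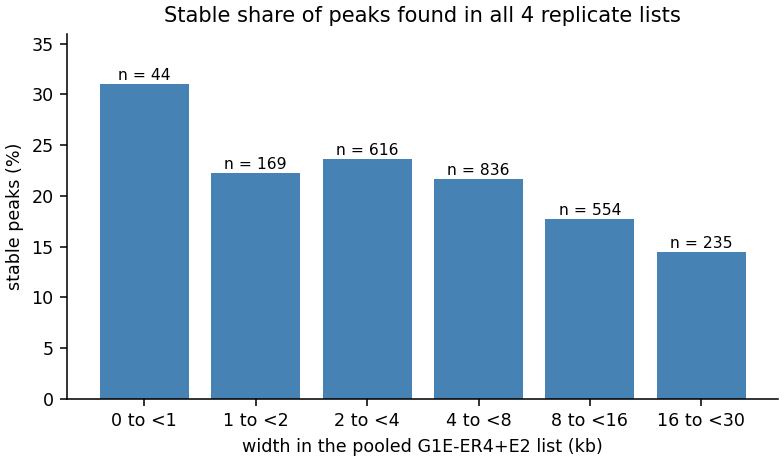
Share of stable peaks in percent (y axis) among the pooled G1E-ER4+E2 peaks that overlap a peak in each of the 4 replicate lists, by width in kb (x axis), with n the number of stable peaks. The share is 31.0% in the narrowest class and 14.4% in the widest, where it is 11.5% and 12.7% of all pooled peaks.

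The widest pairs with identical borders show that the enrichment inside unchanged borders could still hold a different rank. At chr11:78348801-78365600 (16800 bp) the pooled percentile was 71.7 in G1E and 97.6 in G1E-ER4+E2. Its replicate percentiles were 71.6 and 76.3 in G1E and 95.9 and 96.5 in G1E-ER4+E2, with no overlap between the states. The peak read in the G1E replicates was narrower, 11200 and 9000 bp, than the 16600 bp of both G1E-ER4+E2 replicates, and each G1E replicate list had 2 peaks there. At chr5:121892601-121907800 (15200 bp) the replicate percentiles were 67.1 and 61.6 in G1E and 71.0 and 65.7 in G1E-ER4+E2, which overlapped, and its pooled difference of 2.28 points was -5.92 when only peaks found in each replicate list were ranked. At chr1:193194601-193209200 (14600 bp) they were 71.4 and 66.6 in G1E and 83.0 and 85.9 in G1E-ER4+E2. The same re-ranking gave a pooled difference of 40.1 points in place of 25.9 on chromosome 11, and 24.6 in place of 17.9 on chromosome 1.

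The borders were next read in the replicate lists, which the choice of members had used only for the presence of a peak. In each list the peak with the longest overlap was taken. The median width of that peak was 5200 and 4600 bp in the G1E replicates and 4400 and 4600 bp in the G1E-ER4+E2 replicates, or 4900 ± 424 bp (SD, n = 2) and 4500 ± 141 bp (SD, n = 2). The median difference of the state means at single peaks was -200 bp, 1 step of the grid. It was 0 bp without G1E replicate 1, -400 bp without G1E replicate 2 and -300 bp without G1E-ER4+E2 replicate 2. Replicate widths were all larger in G1E-ER4+E2 at 342 stable peaks (13.9%) and all smaller at 604 (24.6%), beside 34.6% and 30.0% of the peaks found in each replicate list. At the remaining 1508 stable peaks the widths of the states overlapped, a pattern that the choice by width favours.

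Stable peaks were mostly single in the replicates. A median of 90.2% and 86.7% of the peak was covered by peaks of the G1E replicates, and 90% and 90.9% by peaks of the G1E-ER4+E2 replicates. Exactly 1 peak was found in every replicate list at 1964 stable peaks (80.03%), beside 65.7% of all peaks found in each list. Stable peaks were also narrower, with a median of 5400 bp beside 6800 bp. At least 50% of the peak was covered in every list at 2222 (90.5%), beside 63.6%. List by list, this share was 98.0% and 96.9% in the G1E replicates, beside 76.3% and 72.3% of all peaks found in each list. In the G1E-ER4+E2 replicates it was 96.7% and 96.8%, beside 94.7% and 95.3%. The 80% condition on the pooled G1E list itself favours coverage in the G1E replicates. No replicate list had more than 5 peaks in a stable peak.

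How much of the border difference was already present between replicates was read by applying the 80% condition to pairs of replicate lists. Over whole lists, 38.1% of the peaks of the G1E replicates and 31.7% of those of the G1E-ER4+E2 replicates had such a partner in the other replicate of the same state, and 10.9% to 12.4% had one in a replicate of the other state. At the stable peaks, the peaks read in both replicates of a state met the condition at 55.3% in G1E and 56.2% in G1E-ER4+E2, and the 4 comparisons between states gave 44.4% to 52.1%. Over all peaks found in each list, the values were 46.9% and 45.9% within states and 18.1% to 21.0% between them. At stable peaks the condition was thus met less often between states than within them in all 4 comparisons, and the gap was smaller than over all peaks, which the choice on the pooled lists favours.

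Enrichment percentiles also differed more between states than within them. The median absolute difference in percentile at stable peaks was 5.14 points between the G1E replicates and 4.04 points between the G1E-ER4+E2 replicates. In the 4 comparisons between states it was 10.9 to 11.8 points. A difference of at least 20 points was present at 6.28% and 6.07% of stable peaks within the states and at 26.2% to 29.5% between them. Over all peaks found in each list, the median absolute difference was 5.87 and 4.88 points within states and 13.2 to 14.2 points between them.

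**Figure D3:**
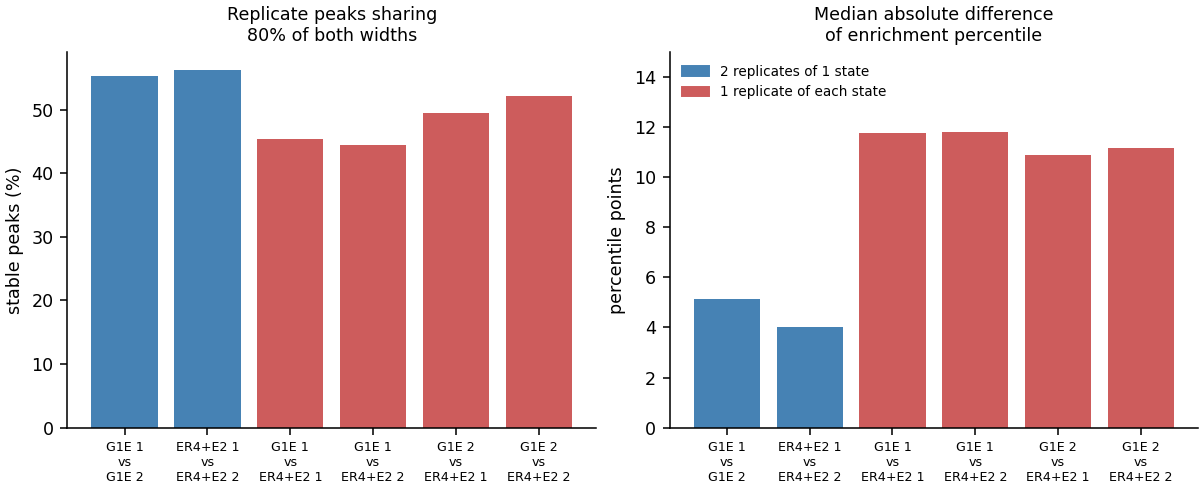
For each of the 6 pairs of replicate lists (x axis), the share of stable peaks in percent whose replicate peaks overlap by 80% of both widths (left) and the median absolute difference in enrichment percentile in points (right), with both replicates of a state in blue and 1 replicate of each state in red. The shares lie between 44.4% and 56.2% in all 6, and the differences in percentile are 4.04 and 5.14 points within states and 10.9 to 11.8 points between them.

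At 418 stable peaks (17.0%) the 80% condition was met in all 6 comparisons of replicate lists. Their median width was 5800 bp, and their median percentiles were 86.2 in G1E and 90.7 in G1E-ER4+E2. The pooled percentiles of the states lay within 20 points of each other at 355 of these 418, beside 1885 of all 2454 stable peaks. The 418 were picked by border agreement a further time, after the choice on the pooled lists. The share meeting all 6 comparisons was not taken over all peaks found in each list, so it has no background here.

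In the pooled lists, stable peaks had a median percentile of 74.99 (interquartile range 57.3 to 89.5) in G1E and 80.2 (64.0 to 92.1) in G1E-ER4+E2. The difference at single peaks had a median of 3.40 points, an interquartile range of -4.86 to 13.4 points and extremes of -72.1 and 68.7 points. All 8846 pairs without another overlapping peak and with a peak in each replicate list had a median of 2.19 points. The size of the typical difference depended on which peaks were ranked. When only pooled peaks with a peak in each replicate list were ranked, the median difference was 0.456 points.

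At 1885 stable peaks (76.8%) the percentiles of the states were less than 20 points apart, and they were within 10 points at 1232 and within 5 points at 721. The percentile was at least 20 points higher in G1E-ER4+E2 at 374 stable peaks (15.2%) and at least 20 points lower at 195 (7.95%). Over the 8846 pairs, the shares were 17.7% and 10.9%. When only peaks found in each replicate list were ranked, 388 stable peaks were at least 20 points higher and 413 at least 20 points lower, so that the excess of higher peaks was not present on that scale. The median width was 4600 bp for the 374 and 5200 bp for the 195.

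Both pooled percentiles were at or above the median of their list at 1915 stable peaks (78.0%) and both were below it at 200. At 210 peaks the G1E-ER4+E2 percentile alone was above the median, and at 129 the G1E percentile alone. Both percentiles were at least 90 at 393 stable peaks (16.0%), and the percentile was at least 90 at 739 in G1E-ER4+E2 and at 585 in G1E. Pearson's correlation of the pooled percentiles across stable peaks was 0.686 and across the 8846 pairs 0.635. Across stable peaks it was 0.903 between the G1E replicates and 0.906 between the G1E-ER4+E2 replicates. These are descriptions across peaks that share libraries.

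**Figure D4:**
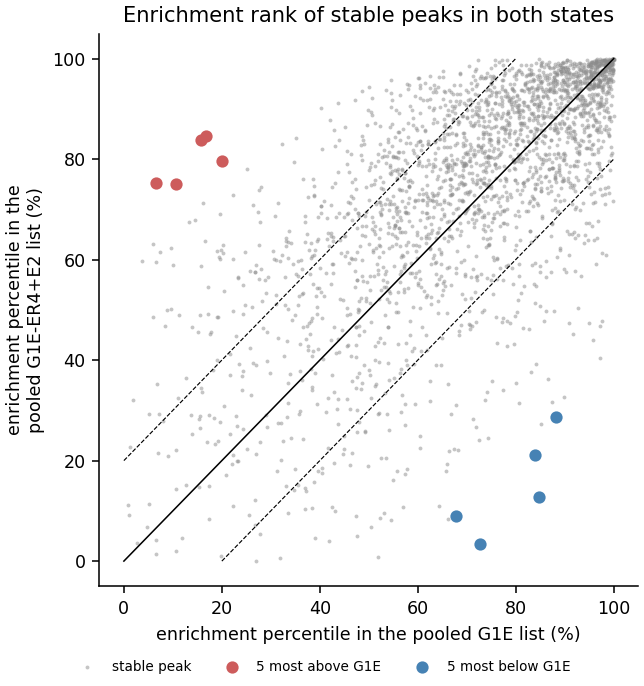
Enrichment percentile of each of the 2454 stable peaks in the pooled G1E-ER4+E2 list (y axis) against that in the pooled G1E list (x axis), both in percent, with a solid line at equality and dashed lines at 20 points from it. Most points lie high in both lists, 374 lie on or above the upper dashed line and 195 on or below the lower one, and the 5 most extreme peaks on each side are coloured.

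The replicate lists gave median percentiles of 71.3 and 72.7 in G1E (72.0 ± 0.982, SD, n = 2) and 79.3 and 77.8 in G1E-ER4+E2 (78.5 ± 1.07, SD, n = 2). All peaks found in each replicate list had 67.8 ± 1.47 and 73.3 ± 1.19 (SD, n = 2 each). The replicates of the states did not overlap in either set, and 2 against 2 samples cannot reach a two-sided exact p below 0.333. These percentiles were ranked among all peaks of each replicate list, and not again with only peaks found in each replicate list. In the pooled lists that change took the median difference from 3.40 to 0.456 points. Both G1E-ER4+E2 replicates were above both G1E replicates at 1111 stable peaks (45.3%), and both were below at 587 (23.9%), with 756 overlapping. The shares over all peaks found in each list were 43.2% and 25.3%, so the shares at stable peaks were near the background.

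Of the 374 stable peaks that were at least 20 points higher in the pooled G1E-ER4+E2 list, 354 had both replicates of that state above both of G1E, and 176 of the 195 that were at least 20 points lower had both below. The pooled lists are labelled as pools of these replicates, so this is not taken as a second measurement.

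With all pooled peaks ranked, the largest positive difference was at chr12:88264001-88268600, and with only peaks found in each replicate list ranked it was 50.5 points there and 63.8 points at chr5:123350601-123355600. This peak of 4600 bp lay within a G1E peak of 5000 bp, and the pooled percentile was 6.47 in G1E and 75.2 in G1E-ER4+E2. The replicate percentiles were 5.51 and 2.04 in G1E and 68.6 and 74.5 in G1E-ER4+E2. A peak was thus called at this place in the cells without GATA1 with similar borders, but among the least enriched of its list.

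The peak at chr5:65129801-65134000 had replicate percentiles of 9.13 and 14.7 in G1E and 87.9 and 75.7 in G1E-ER4+E2. At chr5:123350601-123355600, whose left border was identical, they were 15.6 and 12.6 in G1E and 76.6 and 79.7 in G1E-ER4+E2. All 4 G1E values of these peaks were below 20.

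The peak at chr12:52667201-52672000 had replicate percentiles of 19.1 and 13.6 in G1E and 67.9 and 67.3 in G1E-ER4+E2. The peak read there was 1600 and 2200 bp wide in the G1E replicates and 4800 and 5000 bp in the G1E-ER4+E2 replicates, although the pooled widths were 4400 and 4800 bp. At chr5:142919601-142922800 the replicate percentiles were 20.4 and 8.75 in G1E and 82.0 and 70.6 in G1E-ER4+E2. The 5 peaks lay on chromosomes 5 and 12 only, and none of them held a tested segment.

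With all pooled peaks ranked, the largest negative difference, -72.1 points, was at chr2:167663801-167669400, where both borders were identical and the width was 5600 bp. The pooled enrichment was 14.1 in G1E and 1.77 in G1E-ER4+E2, or percentiles of 84.8 and 12.8. The replicate percentiles were 80.8 and 77.9 in G1E and 23.0 and 7.32 in G1E-ER4+E2. The states did not overlap. The pooled borders were the same on the grid of 200 bp, but the peak read was 5600 and 5400 bp wide in the G1E replicates and 3600 and 5000 bp in the G1E-ER4+E2 replicates.

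At chr9:110357001-110367800 the replicate percentiles were 64.4 and 64.4 in G1E and 15.3 and 13.3 in G1E-ER4+E2. The peak read was 10400 and 9800 bp wide in the G1E replicates and 3600 and 5000 bp in the G1E-ER4+E2 replicates, so the pooled borders were closer than those of the replicates. The peak at chr13:35702401-35711000 had 64.4 and 81.8 in G1E and 22.3 and 14.8 in G1E-ER4+E2. The widths read in the G1E replicates of the latter were 12200 and 6800 bp, and those in the G1E-ER4+E2 replicates 5800 and 7000 bp.

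At chr11:11552601-11559800 the replicate percentiles were 65.9 and 78.1 in G1E and 48.9 and 16.5 in G1E-ER4+E2, the widest spread within a state among the 10 most extreme peaks. With only peaks found in each replicate list ranked, this peak had a difference of -73.2 points and the one on chromosome 2 a difference of -72.9 points. The peak at chr1:10309601-10325200 had 63.5 and 66.2 in G1E and 19.0 and 2.54 in G1E-ER4+E2. Each G1E-ER4+E2 replicate list had 2 peaks there and each G1E list had 1. None of these 5 peaks held a tested segment.

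**Figure D5:**
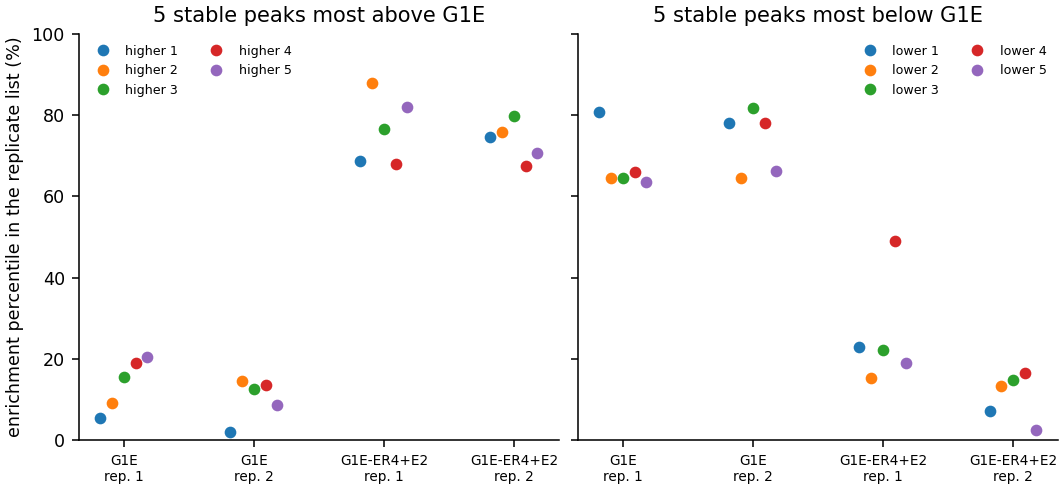
Enrichment percentile in percent (y axis) in each replicate list (x axis) for the 5 stable peaks most above G1E (left, higher 1 to 5) and the 5 most below it (right, lower 1 to 5), numbered in the order of the text. In the left panel all G1E values are at most 20.4 and all G1E-ER4+E2 values at least 67.3, and in the right panel the G1E values are at least 63.5 and the G1E-ER4+E2 values at most 48.9.

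The 28 stable peaks with a tested segment were wide, with a median of 13200 bp, and their median pooled percentiles were 83.9 in G1E and 83.2 in G1E-ER4+E2. The percentile was higher in G1E-ER4+E2 at 18 of them and lower at 10. Both G1E-ER4+E2 replicates were above both G1E replicates at 16 of the 28 and below both at 9, beside 45.3% and 23.9% of all stable peaks and 43.2% and 25.3% of all peaks found in each list. The pooled percentile was at least 20 points higher at 3 of the 28 and at least 20 points lower at 3, beside 15.2% and 7.95% of all stable peaks. When only peaks found in each replicate list were ranked, these counts were 5 and 7, beside 388 and 413 of all 2454 stable peaks. The segments had been selected in several ways, TAL1 binding in G1E-ER4+E2 cells among them, so they are no sample of all stable peaks.

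Among the 3 that were at least 20 points higher with all pooled peaks ranked, the peak around TAL1_4249, at chr7:133180401-133187800, had replicate percentiles of 41.8 and 40.1 in G1E and 88.0 and 86.5 in G1E-ER4+E2 (40.9 ± 1.16 and 87.3 ± 1.12, SD, n = 2). Its pooled width was 6000 bp in G1E and 7400 bp in G1E-ER4+E2.

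The peak around TAL1_3188, at chr4:117501601-117512600, had replicate percentiles of 59.2 and 38.9 in G1E and 85.6 and 87.3 in G1E-ER4+E2. The second G1E replicate list had 2 peaks there, of which the one read was 3600 bp wide, against 9400 bp in the first. The peak around TAL1_2456, at chr2:31975401-32004200, had 71.1 and 83.6 in G1E and 98.7 and 97.4 in G1E-ER4+E2. Its left border was identical in both pooled lists and its right border differed by 1 step of the grid over a width of 28800 bp. The replicate lists divided this region differently, with peaks read of 37800 and 15200 bp in G1E, where the lists had 1 and 3 peaks, and of 14200 and 20400 bp in G1E-ER4+E2, where they had 3 and 2. Ranking only peaks found in each replicate list gave pooled differences of 58.5, 42.1 and 30.7 points at TAL1_4249, TAL1_3188 and TAL1_2456. With all pooled peaks ranked they were 44.7, 30.0 and 20.2.

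Among the 3 that were at least 20 points lower on the same scale, the peak around GHP18, at chr7:75117801-75120200, was 2400 bp wide, and its replicate percentiles were 51.4 and 57.0 in G1E and 9.95 and 22.1 in G1E-ER4+E2. The peak around TAL1_248, at chr1:155875801-155886000, had 98.4 and 98.2 in G1E and 65.4 and 82.7 in G1E-ER4+E2. The peak around TAL1_2184, at chr18:75645201-75665600, had 86.7 and 86.9 in G1E and 63.3 and 76.7 in G1E-ER4+E2. In all 3 the percentiles of the states did not overlap. The replicate widths differed between states at TAL1_2184, with 22800 and 19400 bp in G1E and 13200 and 5000 bp in G1E-ER4+E2, whose lists had 2 and 3 peaks there. At TAL1_248 they were 8200 and 8600 bp in G1E and 6800 and 4000 bp in G1E-ER4+E2. The size of the pooled difference depended on which peaks were ranked. With only peaks found in each replicate list ranked, it was -65.7 points in place of -37.2 at TAL1_248 and -52.5 in place of -27.9 at TAL1_2184. At GHP18 it was -45.0 in place of -46.0.

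The segments whose primers are shown lie in peaks of various kinds. TAL1_4199 shared its peak, chr7:111007001-111030800, with the segments GHP181 and GHP182. This peak was among the most enriched of both states, with replicate percentiles of 88.0 and 97.7 in G1E and 99.6 and 99.8 in G1E-ER4+E2, and with a shared left border and a right border 4400 bp further out in G1E-ER4+E2. At TAL1_196 (chr1:135022601-135040400) the replicate percentiles were 91.1 and 90.3 in G1E and 99.3 and 99.4 in G1E-ER4+E2.

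At TAL1_4157 (chr7:91869001-91873000) the replicate percentiles were 69.2 and 85.5 in G1E and 92.0 and 95.2 in G1E-ER4+E2. The peak of TAL1_3920 (chr6:135144401-135157400) had 72.1 and 80.6 in G1E and 90.5 and 92.6 in G1E-ER4+E2. TAL1_3022 (chr3:146066601-146082400), the segment whose reverse primer holds the GATA core, had 74.3 and 75.9 in G1E and 69.4 and 70.5 in G1E-ER4+E2. Among the 6 peaks it was thus the one with a lower rank in G1E-ER4+E2, without overlap between the states. Its pooled difference was -7.37 points, and -19.96 with only peaks found in each replicate list ranked.

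Vav2R5, a segment whose name carries the symbol Vav2, lay in a stable peak of 3000 bp at chr2:27266201-27269200. Its replicate percentiles of 48.8 and 35.4 in G1E and 45.9 and 47.9 in G1E-ER4+E2 overlapped. The overlap of this pair was exactly 80% of the wider peak. The peak of TAL1_3897 and TAL1_3898, at chr6:122333001-122349800, had close percentiles in all replicate lists, with 98.3 and 98.3 in G1E and 98.3 and 98.7 in G1E-ER4+E2.

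The 5 widest stable peaks ranged from 29200 to 29800 bp in the pooled G1E-ER4+E2 list, just under the limit on width. At chr8:10982801-11012400 the replicate percentiles were 94.4 and 91.5 in G1E and 99.1 and 99.0 in G1E-ER4+E2, and at chr4:118843801-118873600 they were 84.9 and 88.3 in G1E and 95.1 and 94.8 in G1E-ER4+E2. At chr4:135405601-135435000 they were 88.5 and 88.7 in G1E and 90.4 and 93.2 in G1E-ER4+E2. At chr9:77791801-77821400 they were 75.2 and 69.8 in G1E and 78.7 and 73.5 in G1E-ER4+E2, which overlapped, and its pooled difference of 1.03 points was -5.77 when only peaks found in each replicate list were ranked. At chr1:59532201-59561400, with an identical left border and a right border that differed by 400 bp, they were 77.9 and 77.2 in G1E and 53.9 and 40.8 in G1E-ER4+E2. There the first G1E-ER4+E2 replicate list had 3 peaks and the second 2, while the G1E lists had 1 and 2.

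The 5 stable peaks with the highest mean percentile over both pooled lists included 3 of at most 1000 bp. The first was a single grid window of 200 bp at chr18:23680001-23680200, with an enrichment of 76.2 in G1E and 27.8 in G1E-ER4+E2 and the same borders in all 6 lists. The others were 400 bp at chr3:20948401-20948800 and 1000 bp at chr4:144176001-144177000. The remaining 2 were on chromosome X, at chrX:10290401-10298200 and chrX:39499601-39510000, with widths of 7800 and 10400 bp. The lowest replicate percentile of the 5 was 99.6. Without the 44 stable peaks narrower than 1000 bp, 2410 remained, 145 with identical borders.

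Stable peaks were found on all autosomes and on chromosome X, and their share of the peaks found in each replicate list ran from 14.2% on chromosome 12 to 26.0% on chromosome X. On chromosome X, the median percentiles of the 99 stable peaks were 95.8 and 96.3 in the G1E replicates and 96.4 and 95.5 in the G1E-ER4+E2 replicates. All 381 peaks of that chromosome found in each replicate list had a median percentile of 96.4 in the pooled G1E-ER4+E2 list, so the high rank in that state was not particular to the stable ones among them.

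Chromosome 12 had the largest median difference between states, 16.5 points over 73 stable peaks, of which 30 were at least 20 points higher in G1E-ER4+E2 and 6 at least 20 points lower. Their median percentiles were 47.2 and 52.9 in the G1E replicates and 66.2 and 64.7 in the G1E-ER4+E2 replicates. Over the 333 pairs without another overlapping peak on this chromosome the median was 14.8 points. Chromosome 7 had the most negative median, -3.80 points over 170 stable peaks (11 higher, 32 lower), and -4.68 points over its 616 such pairs. Both values were thus near those of all such pairs on the same chromosome. Without chromosome 12 the median over stable peaks was 3.29 points, with 353 higher and 188 lower by at least 20 points.

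Stable peaks lay further from other peaks than the rest did. The gap to the nearest pooled G1E-ER4+E2 peak had a median of 5600 bp, against 3000 bp for the 10474 other peaks found in each replicate list. The adjacent peaks on either side were stable in 13.2% of cases beside stable peaks and in 9.63% beside the others, and they were of the several or shared kind in 13.9% and 24.1%. The others include the several or shared kind, whose peaks can lie side by side on a single G1E peak. At 2402 of the 2454 stable peaks the G1E partner overlapped no other peak. The definitions of the classes thus favour a larger gap and fewer such neighbours at stable peaks. Peaks without a G1E partner made up 32.9% of the adjacent peaks in both. Runs of at least 2 stable peaks in a row, with no other peak between them, numbered 277 and held 600 stable peaks, 40 runs had at least 3, and the longest had 5, at chr7:134366801-134490800.

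Near the thresholds of the choice, 142 pairs overlapped by exactly 80% of the wider peak, of which the first 3 by position were chr1:65000801-65004000, chr1:157404401-157415400 and chr1:163214401-163217400, with differences of -20.6, 19.9 and 11.6 points. The nearest pair outside, with 79.8%, was chr6:88136401-88157000, at percentiles of 99.1 in G1E and 77.6 in G1E-ER4+E2. It was followed by chr6:143111001-143129200, at 75.8 and 81.4, and chr11:19885001-19902800, at 53.1 and 71.5. The pairs just at or over the limit on width were chr19:44317201-44347200, at 85.8 and 95.9, and chr7:135532201-135562400, at 87.0 and 81.2.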

How the data were processed

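H3K27ac ChIP-seq peaks of 4 samples, 2 of G1E and 2 of G1E-ER4+E2, were used as 4 replicate lists and 2 pooled lists. For each broad peak, the deposited files hold a fold enrichment, which is a linear ratio, with its p-value and q-value from the authors' peak caller. The submitters' processing notes name bcl2fastq 1.8.4, Bowtie 1.0.0, SICER 1.1 and mm9. The control, the settings and the way replicates were pooled are not given in the sources used here. All q-values were at most 0.01, and the p-values were not used. The lists hold no counts, so the depth is unknown.

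Groups came from the labels. Overlaps, percentiles and classes were computed with Python 3.11.15, NumPy 2.4.6 and pandas 2.3.3, and plots with Matplotlib 3.10.9. Files store starts from 0, and positions here count from 1. The script was tested on simulated peak lists. No test was run, since the states were compared on the lists that chose the members. The members, lists and alternatives were chosen with earlier results of these data known. The regions named were the 5 with the largest difference in percentile in each direction, the 5 widest, the 5 with the highest mean percentile, the 3 widest with identical borders, those nearest to the thresholds and, of those holding a tested segment, the ones with differences of at least 20 points, shown primers or a gene symbol in the name, with 1 more. The last narrowing was made after the values were seen. Alternatives were other overlaps, replicate conditions, width limits, peak thresholds, ranked sets, replicate peaks and chromosomes, and leaving out each replicate list.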

Additional observations from a re-analysis of the deposited data

How the results depend on the processing

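No paired analysis was possible because no result comes from a test, and the labels do not say that equal replicate numbers mark a shared culture or day. With an overlap of 70% of both widths the number of stable peaks was 3982 in place of 2454, with 614 at least 20 points higher and 329 lower in G1E-ER4+E2, and 1750 and 926 with replicate percentiles all higher and all lower; with 90% these were 1031, 159, 71, 482 and 236. The share of peaks with a partner in another replicate list was 19.0% between and 49.3% within states at 70%, and 4.49% and 16.9% at 90%, in place of 11.6% and 34.9%; these counts follow from the condition itself. With only enrichments from the list median upward in the pooled lists, the median percentile difference was 6.35 points in place of 3.40. Percentiles were taken again there over the fewer remaining peaks, so the same difference in rank makes more points and both values are not on 1 scale. With only peaks found in each replicate list ranked, the median difference was 0.456 points, with 413 peaks at least 20 points lower in place of 195. The other 139 values under the 16 alternatives stayed within 1.5 times the count or within the spread between replicates. They include the alternatives chosen after seeing the data, without chromosome 12 and without stable peaks under 1000 bp. Counts were compared as such and not as shares. With only enrichments from the list median upward, 549 and 249 of 1915 stable peaks were at least 20 points higher and lower, in place of 374 and 195 of 2454. Without each replicate list in turn, the number of stable peaks ran from 2481 to 2507, the median percentile difference in the replicate lists from 3.62 to 4.96 points and the median width difference there from -400 to 0 bp. Over the 51 peaks that the rule for names covers, without those nearest to the 80% condition but with all 28 that hold a tested segment, named in the text or not, the percentile difference changed sign in 4 of 102 values under the 2 alternatives that re-rank peaks, and 37 moved by more than their spread between replicates. Leaving out a replicate list did not change the pooled lists, so it says little about the pooled values.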
